A study of Mus musculus with 6 samples.

Results

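Genes that carry the interferon signal from the cell surface, or damp it, were followed through leukocytes of the irradiated mouse heart. They were taken by symbol as 9 of the 32285 genes listed in the deposited tables: Ifnar1, Ifnar2, Ifngr1 and Ifngr2 for the receptor chains, Jak1, Jak2 and Tyk2 for the kinases, and Socs1 and Socs3 for the inhibitors. CD45+ cells had been isolated from hearts of C57Bl6J mice 28 days after treatment and profiled in 6 droplet libraries that count messenger RNA 3' ends by unique molecular identifier (UMI). In 2 libraries the mice were irradiated with a single dose of 12 Gy, carried "Tmem" in the title and were labelled STING KO (TmemRT). In 2 libraries the mice were wild type and received the same dose (RT), and in 2 they were wild type and received a sham procedure (Sham). STING is the adaptor through which cytosolic DNA induces type I interferon. The labels do not give the STING allele, the number of mice per library or a batch, so the spread behind each p-value is that of the libraries, and it may be technical. A sham library labelled STING KO was not analysed here, so an effect of the genotype without irradiation cannot be told apart from one that needs it.

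Type I interferons bind a receptor of the Ifnar1 and Ifnar2 chains, to which the kinases Tyk2 and Jak1 are attached, and interferon gamma binds a receptor of the Ifngr1 and Ifngr2 chains, to which Jak1 and Jak2 are attached. The kinases phosphorylate STAT factors, which enter the nucleus and activate interferon-stimulated genes. Socs1 is induced by this route and inhibits the Janus kinases, while Socs3 is induced mainly through STAT3 and inhibits signalling from the gp130 family of receptors, which includes the interleukin 6 receptor.

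The promoter windows of the inhibitors are shown because Socs1 and Socs3 were the members with a difference that passed the test. All 9 members had a RefSeq window on GRCm38.p6, from 250 bases before to 50 bases after the annotated start. Both strands were searched for TTCNNNGAA, the gamma-activated site that STAT dimers bind, and for a core of the interferon-stimulated response element, GAAA and GAAA parted by any 2 bases. Capitals mark the matches in the windows of Socs1 (chr16:10785487-10785786, minus strand) and Socs3 (chr11:117969317-117969616, minus strand).
Socs1: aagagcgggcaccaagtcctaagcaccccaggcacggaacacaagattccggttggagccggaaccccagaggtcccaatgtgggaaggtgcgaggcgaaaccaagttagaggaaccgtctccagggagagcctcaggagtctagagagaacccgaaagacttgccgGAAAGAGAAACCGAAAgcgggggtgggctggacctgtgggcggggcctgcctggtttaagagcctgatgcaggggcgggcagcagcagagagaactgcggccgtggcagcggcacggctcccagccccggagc
Socs3: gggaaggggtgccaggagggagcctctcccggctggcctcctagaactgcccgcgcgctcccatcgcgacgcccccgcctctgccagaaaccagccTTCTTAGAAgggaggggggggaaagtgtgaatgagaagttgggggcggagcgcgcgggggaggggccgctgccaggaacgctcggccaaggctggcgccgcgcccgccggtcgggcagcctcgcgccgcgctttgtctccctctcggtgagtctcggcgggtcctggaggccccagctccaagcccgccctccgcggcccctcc
Socs1 held 2 overlapping matches to that core, GAAAGAGAAA and GAAACCGAAA, which begin 83 and 77 bases before its start, and it was the only one of the 9 with that motif. Socs3 held TTCTTAGAA, which begins 154 bases before its RefSeq start. The GENCODE annotation has Socs3 from base 117966079 to 117970047, so the whole Socs3 window lies inside the gene by that annotation. The gamma-activated site was also matched by TTCACGGAA in Ifnar1, 5 bases before the start, and by TTCCTGGAA in Ifnar2, 214 bases before the start. The other 5 windows held neither. Of 32851 windows of that length, 8.30% held TTCNNNGAA and 3.44% held the response element core, and a match is a description of letters and not a bound site. On GRCm38 the GENCODE annotation places Ifnar1, Ifnar2, Ifngr2 and Socs1 on chromosome 16, Ifngr1 on 10, Jak1 on 4, Jak2 on 19, Tyk2 on 9 and Socs3 on 11. Ifnar2 overlaps Gm21970 and Jak1 overlaps Gm12785 on the same strand, so reads in the shared stretches may have affected their counts, which was not checked.

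After filters, 31279 of 45904 barcodes were kept, 3394 to 6014 per library. Kept cells were deeper in the irradiated groups: the median was 6792 and 6186.5 UMIs per cell in TmemRT, 6373 and 5510.5 in RT, and 4409 and 4588 in Sham. Pairs of libraries shared 6 to 38 barcodes. Cells were clustered, clusters were named from marker genes, and 10 classes had at least 20 cells in every library, the largest with 10151 macrophage-like cells, then 3750 neutrophil-like and 3354 B cell-like ones. The gene for the sorted marker CD45, Ptprc, averaged 403 counts per 1000000 UMIs of a class (CPM) in macrophage-like cells and was low in 2 classes that the sort should have removed, with 87.6 CPM in endothelial-like and 46.3 CPM in fibroblast-like cells. Clusters in which markers of a second lineage passed a set detection rate were set aside, with related lineages exempt. They held 12.4% ± 3.95 of TmemRT, 12.7% ± 0.785 of RT and 14.0% ± 1.79 of Sham cells (SD, n = 2 each). Clusters left unnamed, which also entered no class, held 8.83% ± 0.652 of TmemRT, 9.79% ± 1.05 of RT and 5.90% ± 0.203 of Sham cells, so that they took a larger share of every irradiated library than of either Sham library. The targeted transcript, Tmem173, was present in all groups: in macrophage-like cells it averaged 52.2 CPM in TmemRT, 58.0 CPM in RT and 48.4 CPM in Sham. Its difference between TmemRT and RT did not pass the test (log2 fold change -0.27 ± 0.09 SE, edgeR adjusted p = 0.105). A 3' count does not check a deletion elsewhere in the gene, so the genotype rests on the label.

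**Figure D1:**
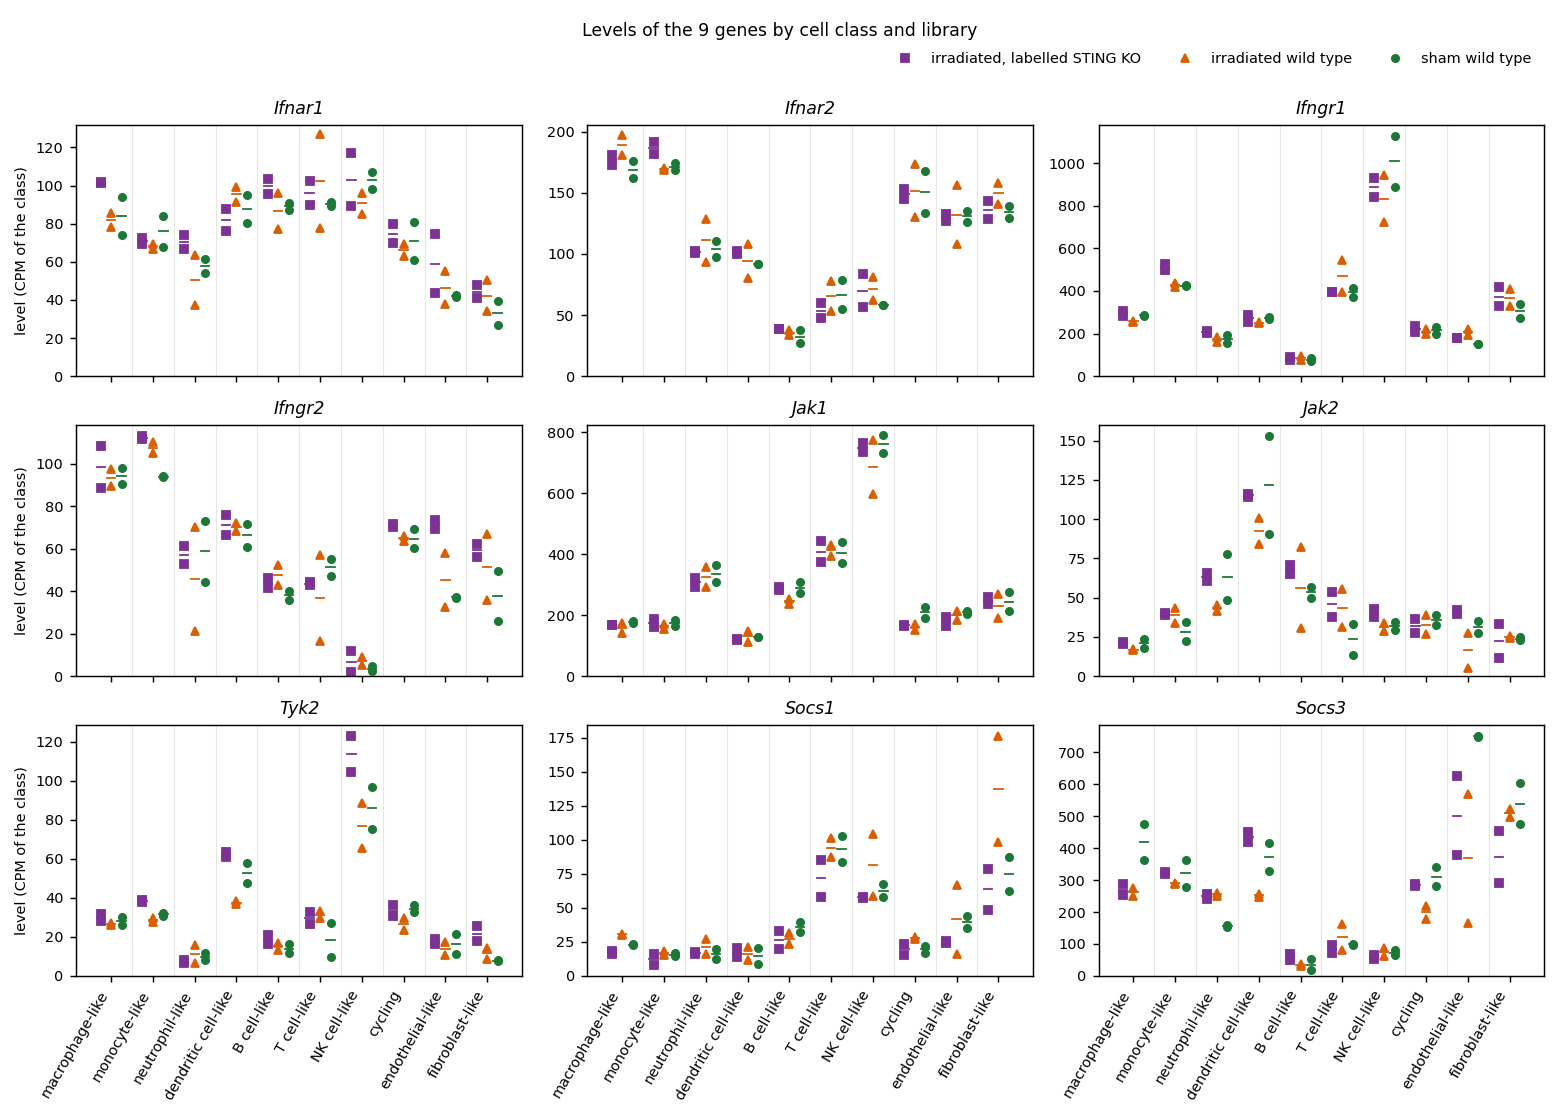
Level of each of the 9 genes, in UMIs per 1000000 UMIs of the class (CPM, linear axes from 0), in 10 cell classes; each point is a library and each bar the mean of the 2 libraries of a group. Differences between classes exceed those between groups for most genes, as for Ifngr1, with 910 CPM in NK cell-like and 82.3 CPM in B cell-like cells.

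The type I receptor chains were ordered differently over the classes. Ifnar1 lay between 98.9 ± 11.7 CPM in NK cell-like and 39.9 ± 8.74 CPM in fibroblast-like cells (mean ± SD over 6 libraries), and every pair of neighbours in that order overlapped. Ifnar2 was highest in macrophage-like (178 ± 11.5 CPM) and monocyte-like cells (176 ± 9.25 CPM), whose ranges overlapped. It was lowest in B cell-like cells (35.5 ± 4.74 CPM), where all 6 libraries lay below every library of T cell-like cells. In macrophage-like cells Ifnar1 had 101 and 102 CPM in TmemRT, 85.4 and 78.5 CPM in RT, and 93.9 and 74.1 CPM in Sham. Ifnar2 had 173 and 181 CPM in TmemRT, 197 and 181 CPM in RT, and 162 and 176 CPM in Sham. For Ifnar1 both TmemRT libraries lay above both RT libraries and the RT and Sham libraries overlapped, while for Ifnar2 both RT libraries lay above both Sham libraries. Such separation was common: of 7619 genes with a mean of at least 10 CPM in these cells, 48.6% had both TmemRT libraries above both RT libraries and 27.4% had both RT libraries above both Sham libraries.

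The chains of the interferon gamma receptor parted in NK cell-like cells. Ifngr1, the ligand-binding chain, was highest there at 910 ± 133 CPM, 2.00 times the level in monocyte-like cells (455 ± 45.5 CPM), and no NK cell-like library overlapped a monocyte-like one. Ifngr2, the chain needed for signal transduction, was lowest in NK cell-like cells at 5.72 ± 3.80 CPM, and again no library overlapped those of the next class, B cell-like cells (43.1 ± 5.61 CPM). The Ifngr2 level rested on 17 UMIs in 1113 NK cell-like cells: by library it was 11.6 and 1.98 CPM in TmemRT, 8.74 and 5.21 CPM in RT, and 2.15 and 4.60 CPM in Sham. The same cells held 2749 UMIs of Ifngr1. All 3 groups showed this pattern in both of their libraries.

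A UMI of Ifngr2 was seen in 1.44% of NK cell-like cells (95% Wilson interval 0.887 to 2.32%), 15.6% of T cell-like, 14.5% of B cell-like and 44.3% of macrophage-like cells. Median depths were 2335, 3597.5, 2783 and 6268 UMIs in that order. With each cell thinned to 2000 UMIs, which left out 375, 69, 627 and 586 shallower cells, the shares were 0.949%, 6.53%, 9.06% and 17.3%. For Ifngr1 the thinned shares were 75.5% of NK cell-like, 47.7% of T cell-like, 16.1% of B cell-like and 43.3% of macrophage-like cells. The intervals cover counting error only, and UMIs from free RNA were not separated from the cells' own. Ifngr2 was highest in monocyte-like (105 ± 8.74 CPM) and macrophage-like cells (95.4 ± 7.64 CPM), whose ranges overlapped.

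**Figure D2:**
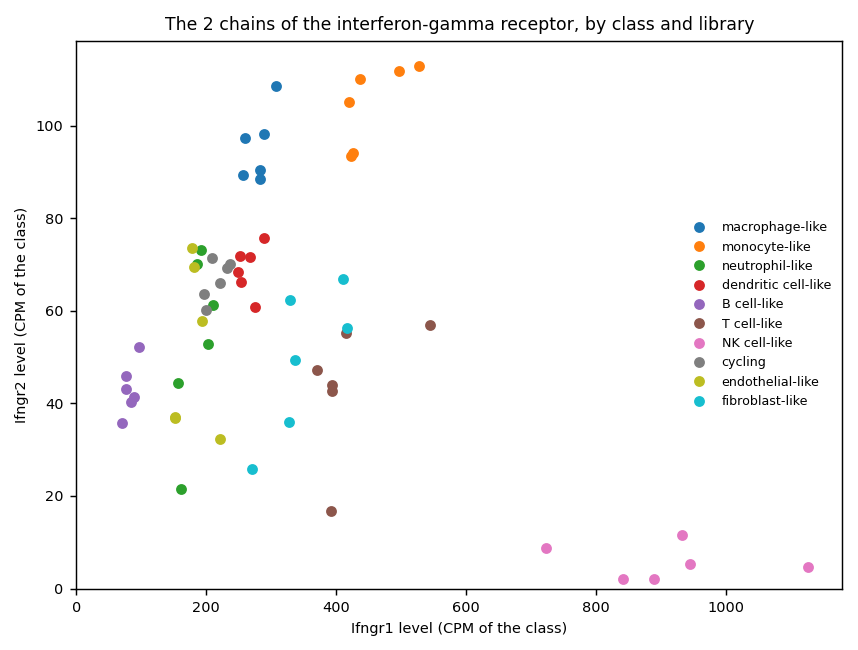
Level of Ifngr2 against level of Ifngr1 (CPM of the class, linear axes from 0), with 1 point per class and library, so that points of a colour are the 6 libraries of a class. The 6 NK cell-like points lie apart, with Ifngr1 between 723 and 1127 CPM and Ifngr2 between 1.98 and 11.6 CPM.

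In macrophage-like cells Ifngr1 had 307 and 283 CPM in TmemRT, 260 and 256 CPM in RT, and 283 and 289 CPM in Sham. Both RT libraries lay below those of either other group, which was common in these cells: 29.5% of genes had both RT libraries below both Sham libraries, and 48.6% had both TmemRT libraries above both RT libraries. Monocyte-like cells had 527 and 497 CPM of Ifngr1 in TmemRT, 437 and 420 CPM in RT, and 427 and 423 CPM in Sham, with both TmemRT libraries above all others, as 29.2% of genes had them above both RT libraries there. In endothelial-like cells the order was another, with 178 and 181 CPM in TmemRT, 221 and 193 CPM in RT, and 152 and 152 CPM in Sham: both RT libraries lay above both Sham libraries, as for 21.3% of genes there, and both TmemRT libraries below both RT libraries, as for 14%. The RT library with 221 CPM held 51 endothelial-like cells, with a median depth of 1251 UMIs. In neutrophil-like cells Ifngr1 had 210 and 202 CPM in TmemRT, 161 and 186 CPM in RT, and 192 and 157 CPM in Sham. There 19.3% of genes, like Ifngr1, had both TmemRT libraries above both RT libraries. None of these differences passed the test, as given below with the kinases.

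Of the kinases, Jak1, which serves both interferon receptors, was highest in NK cell-like cells (732 ± 70.3 CPM), 1.79 times the T cell-like level (408 ± 33.1 CPM), with no overlap between the classes. It was lowest in dendritic cell-like cells (126 ± 12.3 CPM), where ranges overlapped with macrophage-like cells (167 ± 14.0 CPM). For Jak1 both RT libraries lay below both Sham libraries in macrophage-like (ratio of means 0.88), cycling (0.77) and B cell-like cells (0.85). In the other classes they overlapped. Of all genes 29.5% separated so in macrophage-like and 21.7% in B cell-like cells, and the share was not counted in cycling cells. Tyk2, the partner of Ifnar1, was also highest in NK cell-like cells (92.2 ± 20.7 CPM), against 50.9 ± 11.7 CPM in dendritic cell-like cells, and lowest in neutrophil-like cells (9.49 ± 3.69 CPM). Jak2, the partner of Ifngr2, was highest in dendritic cell-like cells (110 ± 24.5 CPM), above every library of B cell-like cells (59.2 ± 17.9 CPM), and lowest in macrophage-like cells (19.5 ± 2.76 CPM). In macrophage-like cells Jak2 had 21.5 and 20.1 CPM in TmemRT, 17.1 and 16.5 CPM in RT, and 23.6 and 18.0 CPM in Sham. The RT libraries were the lowest of the 6, a separation to be read beside the same 29.5% and 48.6% of all genes. Both TmemRT libraries lay above both RT libraries for Tyk2 in macrophage-like (ratio of means 1.13), monocyte-like (1.33), cycling (1.26) and dendritic cell-like cells (1.66). The same held in NK cell-like (1.48) and fibroblast-like cells (1.88, from 45 UMIs), with overlap in the other classes. Of all genes 48.6% separated so in macrophage-like and 29.2% in monocyte-like cells, and the share was not counted in the others named.

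No receptor or kinase gene passed the test in any of 5 classes. Counts were summed per class and library and tested with edgeR's quasi-likelihood F test, with Benjamini-Hochberg adjustment over all genes tested, and an adjusted p under 0.05 counted as passing. Across the 7 genes and 5 classes, 0 of 35 values passed for TmemRT against RT and 0 of 35 for RT against Sham, with 2 and 0 at an unadjusted p under 0.05. The log2 fold changes ran between -0.35 and 0.80 for TmemRT against RT and between -0.55 and 0.43 for RT against Sham. The lowest adjusted p was 0.195 for Ifnar2 (log2 fold change -0.21 ± 0.09 SE) for TmemRT against RT in macrophage-like cells, and 0.214 for Jak2 (-0.28 ± 0.13 SE) for RT against Sham in the same cells. In macrophage-like cells the 95% intervals of the 7 genes reached at most from -0.41 to 0.47 for TmemRT against RT and from -0.58 to 0.37 for RT against Sham. In endothelial-like cells, with 698 cells in all, they reached from -1.01 to 1.80 and from -1.55 to 1.10, so differences within those ranges are not excluded there. Jak2 in B cell-like cells passed for RT against Sham without RT replicate 1 (log2 fold change 0.69, adjusted p = 0.0297), a library with 30.7 CPM of Jak2 against 81.9 CPM in the other RT library.

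The share of all tested genes that passed gives the background for these counts. In macrophage-like cells 4.34% of 12197 genes passed for TmemRT against RT (1.66% higher and 2.67% lower) and 8.84% for RT against Sham (4.87% higher and 3.97% lower). In endothelial-like cells 0.0113% passed in each comparison, and in B cell-like cells 0.204% for TmemRT against RT and 0.0113% for RT against Sham. In monocyte-like cells 0.729% and 0.127% passed in that order. In neutrophil-like cells 0.184% passed for TmemRT against RT and 0% for RT against Sham, where edgeR called 0 of 6507 genes, 428 had an unadjusted p under 0.05 and DESeq2 called 3. Of 90 tests of the 9 members in these classes, 3 passed, all of them SOCS genes in macrophage-like cells. Whether the effects differed between endothelial-like and macrophage-like cells was tested directly, and 0 of 9 members passed for either comparison by edgeR, beside 0.0686% of all genes for TmemRT against RT and 0.587% for RT against Sham. No member had an unadjusted p under 0.05 in those tests.

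**Figure D3:**
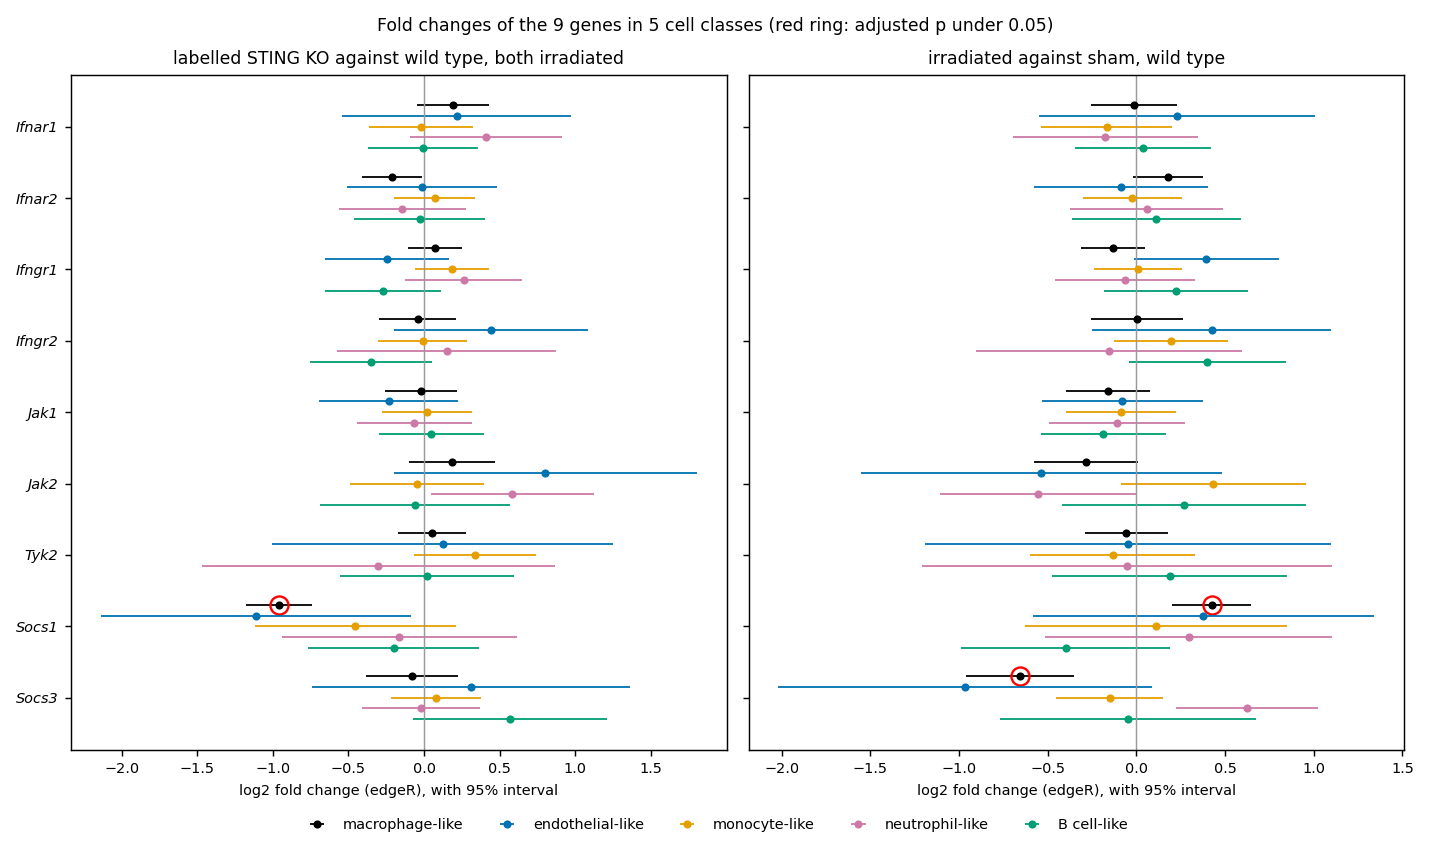
Log2 fold change of each gene with its 95% interval (edgeR, after normalization), for TmemRT against RT on the left and RT against Sham on the right, coloured by cell class. Red rings mark the 3 tests with an adjusted p under 0.05: Socs1 in both panels and Socs3 on the right, all in macrophage-like cells.

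Socs1 was lower in TmemRT than in RT macrophage-like cells. It had 16.2 and 18.1 CPM in TmemRT, 30.3 and 30.8 CPM in RT, and 22.6 and 23.5 CPM in Sham, from 249 and 271 UMIs in TmemRT, 269 and 334 in RT, and 215 and 253 in Sham. The groups did not overlap: TmemRT lay below Sham and Sham below RT. The TmemRT level was 0.514 of the RT level after normalization (log2 fold change -0.96 ± 0.10 SE, 95% interval -1.18 to -0.74, edgeR adjusted p = 0.00190). Of the genes with a mean of at least 10 CPM in these cells, 15% had both TmemRT libraries below both RT libraries. The call held under 13 of 14 alternative settings and was lost when the mitochondrial limit on cells was 5% instead of 10% (log2 fold change -0.97, adjusted p = 0.0963), which kept 2007 of the 10151 cells.

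The rise of Socs1 in RT over Sham macrophage-like cells was smaller and less stable (log2 fold change 0.43 ± 0.10 SE, 95% interval 0.20 to 0.65, adjusted p = 0.0288). Beside it, 27.4% of genes had both RT libraries above both Sham libraries. The call held under 6 of 14 alternatives: it was lost with any of the 6 libraries left out (log2 fold changes 0.38 to 0.48), with DESeq2 (adjusted p = 0.140) and at the 5% mitochondrial limit (0.07, adjusted p = 0.929). It was not called in 1 of 3 clusterings of these cells. In the other tested classes Socs1 passed in neither comparison. Its levels in endothelial-like cells were 24.5 and 25.8 CPM in TmemRT, 16.1 and 67.1 CPM in RT, and 43.9 and 35.3 CPM in Sham, from as few as 3 UMIs in a library. The 2 RT libraries were the lowest and the highest of the 6. B cell-like cells had 32.9 and 19.7 CPM of Socs1 in TmemRT, 31.6 and 23.1 CPM in RT, and 39.7 and 32.2 CPM in Sham, with both RT libraries below both Sham libraries, as for 21.7% of genes in these cells.

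Over the classes, Socs1 was highest in fibroblast-like (92.0 ± 45.0 CPM), T cell-like (86.5 ± 16.0 CPM) and NK cell-like cells (67.4 ± 18.4 CPM), whose ranges overlapped, and lowest in monocyte-like cells (14.9 ± 3.46 CPM). Fibroblast-like values rested on 302 UMIs, and a single RT library reached 176 CPM. The classes that follow were not tested. Both TmemRT libraries lay below both RT libraries in fibroblast-like (ratio of means 0.46), cycling (0.70), NK cell-like (0.71) and T cell-like cells (0.76). They overlapped in dendritic cell-like cells (1.05). Both RT libraries lay above both Sham libraries in fibroblast-like (1.83) and cycling cells (1.42), and overlapped them in the rest. The share of all genes that separate so was not counted there.

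Socs3 was lower in RT than in Sham macrophage-like cells, while TmemRT and RT overlapped. It had 287 and 254 CPM in TmemRT, 249 and 277 CPM in RT, and 362 and 476 CPM in Sham. All 4 irradiated libraries lay below both Sham libraries. The RT level was 0.634 of the Sham level after normalization (log2 fold change -0.66 ± 0.14 SE, 95% interval -0.96 to -0.35, adjusted p = 0.0172). In these cells 29.5% of genes had both RT libraries below both Sham libraries. For TmemRT against RT the log2 fold change was -0.08 ± 0.14 SE (95% interval -0.38 to 0.22, adjusted p = 0.769). The call for RT against Sham held under 11 of 14 alternatives and was lost without Sham replicate 2 (-0.42, adjusted p = 0.0803), without RT replicate 1 (-0.58, adjusted p = 0.0784) and at the 5% mitochondrial limit (-0.45, adjusted p = 0.229).

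Neutrophil-like cells showed the opposite order of Socs3 levels. They had 256 and 242 CPM in TmemRT, 252 and 259 CPM in RT, and 152 and 159 CPM in Sham, so that the irradiated libraries lay above both Sham libraries. In these cells 21.8% of genes had both RT libraries above both Sham libraries. Within these cells the difference of RT from Sham did not pass (log2 fold change 0.62 ± 0.18 SE, 95% interval 0.22 to 1.02, adjusted p = 0.452). The difference between the neutrophil-like and macrophage-like effects did pass in a test added after these levels had been seen (1.23 ± 0.24 SE on the log2 scale, 95% interval 0.76 to 1.70, edgeR adjusted p = 8.45e-05), beside 1.35% of all 11977 genes. Of the 9 members, 1 passed this test. It was lost without Sham replicate 2 (1.13, adjusted p = 0.0991), without RT replicate 2 (1.02, adjusted p = 0.0609) and at the 5% mitochondrial limit (0.91, adjusted p = 0.259). With the set-aside cluster of neutrophil character added (880 cells that also carried B cell transcripts), the neutrophil-like effect of RT against Sham was 0.09 and that of TmemRT against RT was 0.78 (adjusted p = 0.0146), while the difference between the classes was 0.75 (adjusted p = 0.00807). In that cluster Socs3 had 344 and 335 CPM in TmemRT, 175 and 146 CPM in RT, and 137 and 168 CPM in Sham. In dendritic cell-like and cycling cells, which were not tested, both RT libraries lay below both Sham libraries (ratios of means 0.68 and 0.64). Both TmemRT libraries there lay above both RT libraries (1.72 and 1.42). TmemRT also lay above RT in B cell-like (1.72) and monocyte-like cells (1.11), where Socs3 did not pass, and below it in fibroblast-like cells (0.73). In monocyte-like cells 29.2% of genes had TmemRT above RT, and shares for the others are not given.

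Socs3 had its highest mean in endothelial-like cells (540 ± 229 CPM), whose range overlapped that of the next class, fibroblast-like cells (474 ± 104 CPM), and its lowest in B cell-like cells (42.9 ± 17.5 CPM). In RT the order of the first 2 was turned, with a mean of 509 CPM in fibroblast-like and 368 CPM in endothelial-like cells. The endothelial-like libraries were spread widely, with 627 and 378 CPM in TmemRT, 167 and 570 CPM in RT, and 749 and 751 CPM in Sham. Both RT libraries lay below both Sham libraries, as for 18.3% of genes in these cells, but the difference did not pass (log2 fold change -0.97 ± 0.46 SE, adjusted p = 0.635). It passed under 2 of 14 alternatives. The set-aside cluster of endothelial character (1389 cells that also carried cardiomyocyte transcripts) entered no class. Socs3 in it had 206 and 281 CPM in TmemRT, 214 and 384 CPM in RT, and 319 and 243 CPM in Sham. In that cluster the RT and Sham libraries overlapped, and every library lay below the mean of the endothelial-like class. The summed level of dissociation-stress genes in endothelial-like cells was 22842 and 17865 CPM in TmemRT, 13791 and 27422 CPM in RT, and 30377 and 24589 CPM in Sham, lowest in the RT library that was lowest for Socs3. Median depth there was 1814 and 2269 UMIs per cell in TmemRT, 1251 and 3930 in RT, and 5220 and 5979 in Sham. The 8 neutrophil markers summed there to 2228 to 2543 CPM in TmemRT, 2617 to 4037 in RT and 3707 to 24779.5 in Sham. The 10 macrophage markers summed to 619 to 887 CPM in TmemRT, 172 to 1508 in RT and 608 to 1588 in Sham. The part of any of these measures in the Socs3 levels was not tested.

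Within the macrophage-like class, SOCS levels differed more between clusters than between groups. The 9 genes were left out of the genes used for clustering. Averaged over the 6 libraries, Socs3 was 543 CPM in cluster 2, led by Tnf, 398 CPM in cluster 3, led by Cd209f, 195 CPM in cluster 16, led by Ifit3, 61.6 CPM in cluster 4, led by Zmynd15, and 57.7 CPM in cluster 5, led by Lyve1. Socs1 was 52.9 CPM in cluster 16, 29.9 CPM in cluster 2, 25.6 CPM in cluster 3, 10.9 CPM in cluster 4 and 7.42 CPM in cluster 5. The immediate-early genes Fos and Atf3, which also respond to tissue dissociation, were high in the same clusters 2 and 3. Fos ranged between 2954 and 6145 CPM in clusters 2 and 3 and between 683 and 1346 CPM in clusters 4 and 5.

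The group differences were not alike in every cluster. In cluster 3, Socs3 had 348 and 308 CPM in TmemRT, 331 and 298 CPM in RT, and 464 and 636 CPM in Sham. In cluster 2 it had 621 and 527 CPM in TmemRT, 446 and 449 CPM in RT, and 567 and 648 CPM in Sham, so there TmemRT overlapped Sham. In clusters 4 and 5 the RT and Sham libraries overlapped. For Socs1, cluster 2 had 23.1 and 21.1 CPM in TmemRT, 38.2 and 33.2 CPM in RT, and 31.5 and 32.4 CPM in Sham, and cluster 3 had 22.9 and 20.3 CPM in TmemRT, 27.4 and 30.5 CPM in RT, and 27.2 and 25.4 CPM in Sham. In both clusters the TmemRT libraries were the lowest. In cluster 16 the irradiated groups overlapped, with 58.5 and 62.2 CPM in TmemRT and 58.9 and 70.9 CPM in RT, while Sham had 27.1 and 40.0 CPM from only 10 UMIs in 51 cells. These clusters were defined on the same cells, so their levels are given without a test. The share of all genes whose libraries separate in the same way within a cluster was not counted.

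The groups were also made up differently, and the clusters with the highest and the lowest mean Socs1 shifted in the direction of the Socs1 calls. Cluster 16, with the highest mean, held 3.17 and 6.80% of the class in TmemRT, 13.4 and 9.10% in RT, and 1.39 and 1.38% in Sham. Cluster 5, with the lowest, held 26.9 and 23.2% in TmemRT, 12.4 and 13.2% in RT, and 17.9% in each Sham library. Neither cluster's shares overlapped between the groups. Cluster 2 held 27.0% in each TmemRT library, 34.2 and 36.0% in RT, and 26.7% in each Sham library. Cluster 3, where Socs3 was also high, held 19.6 and 18.0% in TmemRT, 15.4 and 22.5% in RT, and 34.4 and 36.3% in Sham, so its share was larger in Sham than in every irradiated library. Cluster 4 held between 17.7 and 25.0% in all libraries. A class sum therefore does not separate a change within cells from a change in which cells were present.

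**Figure D4:**
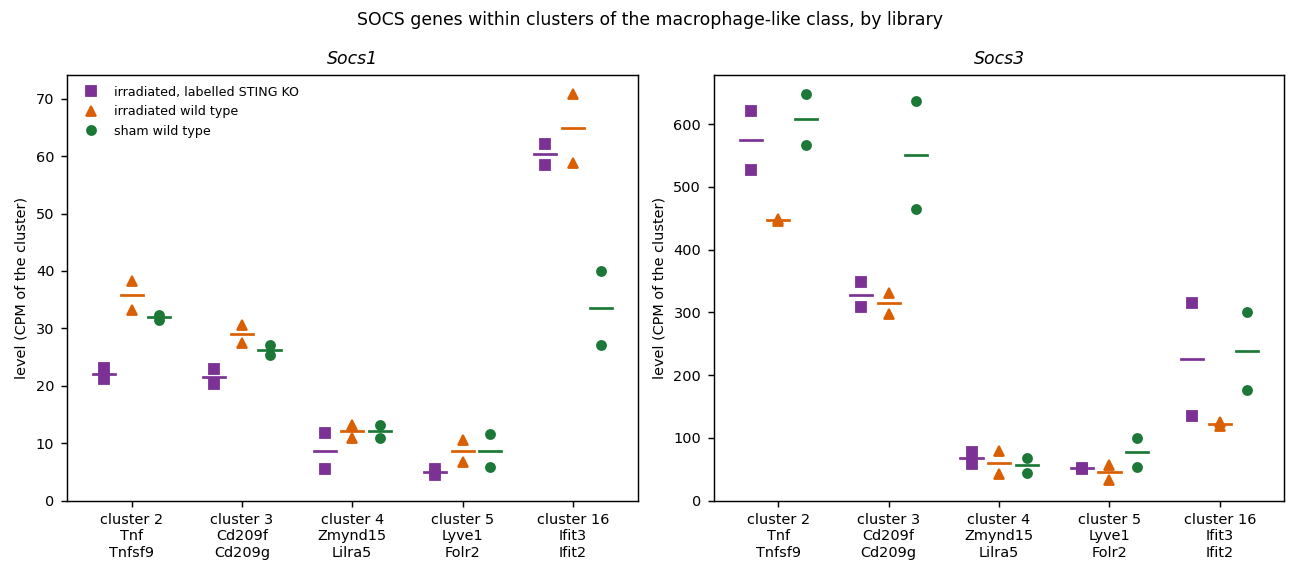
Level of Socs1 (left) and Socs3 (right) in the 5 macrophage-like clusters with at least 20 cells in every library (CPM of the cluster, linear axes from 0), with 1 point per library and a bar at the mean of each group. In the irradiated libraries Socs1 is highest in the Ifit3-led cluster 16, while in Sham that cluster (27.1 and 40.0 CPM) overlaps cluster 2 (31.5 and 32.4 CPM). Averaged over the 6 libraries Socs3 is highest in clusters 2 and 3, where the Sham libraries reach 648 and 636 CPM.

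Genes around the receptors were counted in macrophage-like cells from lists chosen with earlier results of these data known. Of 13 type I interferon targets tested, 13 were lower in TmemRT than in RT (median log2 fold change -1.22) and 12 were higher in RT than in Sham (median 1.71), against medians over all genes of -0.0041 and -0.0039. Irf7, the transcription factor that amplifies the interferon response, changed by -1.86 ± 0.19 SE for TmemRT against RT and by 2.34 ± 0.19 SE for RT against Sham, and Ifit3, an antiviral effector, by -1.51 ± 0.22 SE and 2.17 ± 0.23 SE. The summed level of this list was 886 and 1247 CPM in TmemRT, 2345 and 2079 CPM in RT, and 798 and 803 CPM in Sham. Of 11 interferon gamma targets, a list that includes Socs1 itself, 3 were lower in TmemRT than in RT (Socs1, Irgm1 and Fcgr1), beside 2.67% of all genes, and 7 were higher in RT than in Sham, beside 4.87%. Without Socs1 the first count is 2 of 10. Interferon beta, Ifnb1, had 6 and 4 UMIs in TmemRT, 16 and 51 UMIs in RT, and 1 UMI in each Sham library, and passed in both comparisons (adjusted p = 0.0117 for TmemRT against RT and 0.00459 for RT against Sham).

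Downstream of the receptors, the transcription factors Stat4 (log2 fold change 1.80 ± 0.27 SE, edgeR adjusted p = 0.00426) and Stat2 (0.69 ± 0.14 SE, adjusted p = 0.0171) were higher in RT than in Sham, and neither passed for TmemRT against RT (log2 fold changes -0.38 and -0.49). Stat3, which induces Socs3, had a log2 fold change of -0.53 for TmemRT against RT (adjusted p = 0.0572) and 0.01 for RT against Sham (adjusted p = 0.963). Of 13 other negative regulators, Usp18, which blocks signalling at Ifnar2, was lower in TmemRT than in RT (-1.24 ± 0.17 SE). Usp18 (1.48 ± 0.18 SE) and Isg15 (2.00 ± 0.22 SE), which stabilizes USP18 in human cells, were higher in RT than in Sham. None of the 6 other genes of the SOCS family, Cish included, passed in either comparison by edgeR, beside the 4.34% and 8.84% of all genes given above.

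Among 15 other cytokine receptors that use Janus kinases, Jak3 included, 0 passed for TmemRT against RT and 2 were higher in RT than in Sham, Il2rg, the common gamma chain (0.71 ± 0.16 SE), and Il21r (0.68 ± 0.15 SE). Of all genes 4.34% passed in the first comparison and 4.87% were higher in the second, so counts this small do not set the list apart. Of 5 cytokines that signal through gp130 or STAT3, Osm, the ligand oncostatin M, was lower in TmemRT than in RT (-0.58 ± 0.13 SE) and higher in RT than in Sham (0.63 ± 0.13 SE), the reverse of the direction of Socs3 for RT against Sham. Lif was lower in TmemRT than in RT (-1.78 ± 0.35 SE).

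Other measures moved with the groups in macrophage-like cells, and their part in the SOCS differences was not tested. The summed level of 16 dissociation-stress genes was 21225 and 18898 CPM in TmemRT, 22056 and 26249 CPM in RT, and 27895 and 26262 CPM in Sham. Of these genes 8 were lower in TmemRT than in RT, beside 2.67% of all genes. Jun alone was lower in RT than in Sham, beside 3.97% of all genes. The 8 neutrophil markers summed to between 232 and 236 CPM in TmemRT, 135 and 208 CPM in RT, and 271 and 325 CPM in Sham, with none of the markers at 0. Markers of other kinds of cell also separated the groups, none of them at 0. The 9 monocyte markers summed to between 110 and 113 CPM in TmemRT, 123 and 143 CPM in RT, and 66.7 and 81.6 CPM in Sham, and the 8 cycling markers to between 87.7 and 100 CPM in TmemRT, 102 and 109 CPM in RT, and 60.3 and 61.4 CPM in Sham. The 8 type 2 innate lymphoid markers summed to between 48.8 and 55.4 CPM in TmemRT, 35.5 and 47.3 CPM in RT, and 59.7 and 72.9 CPM in Sham, and the 6 cardiomyocyte markers to between 128 and 131 CPM in TmemRT, 145 and 161 CPM in RT, and 186 and 194 CPM in Sham. Monocyte and cycling markers were highest in RT, as Socs1 was, but lower in Sham than in TmemRT. The 6 erythroid markers summed to between 7.60 and 8.19 CPM in TmemRT, 75.4 and 271 CPM in RT, and 80.3 and 276 CPM in Sham. Median depth was 8404 and 7882 UMIs per macrophage-like cell in TmemRT, 6818 and 5682 in RT, and 4869 and 5186 in Sham.

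For each member, the genes with the most similar profile were found over 60 summed profiles (10 classes by 6 libraries) among 8591 genes, by Pearson correlation of log2(CPM + 1). The profiles share libraries and cells, so the correlations describe these data and carry no test. The nearest gene was Ptpn18 for Ifnar1 (r = 0.85), Ubtd1 for Ifnar2 (0.90), Rnf166 for Ifngr1 (0.90), Il6ra for Ifngr2 (0.80), Ugcg for Jak1 (0.87), Aff1 for Jak2 (0.73), Irf8 for Tyk2 (0.84), Itm2a for Socs1 (0.82) and App for Socs3 (0.90). Among the members themselves the highest correlation was that of Ifnar2 with Socs3 (0.81), and the lowest that of Ifngr2 with Jak1 (-0.79).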

How the data were processed

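CD45+ cardiac cells were counted with the 10x Genomics 3' chemistry, per the labels' protocols. Their deposited tables give whole, unnormalized UMI counts, made by the authors with Cell Ranger 5.0.0 on mm10, per the submitters' processing notes, which also name Seurat 3 with a role not given in the sources used here. The 9 members and all gene lists were chosen with earlier results of these data known. Members are given whether or not they pass; of other lists at most the 4 called genes with the largest change, with further genes (Stat3, Cish, Tmem173, Ptprc and the genes heading clusters) named after their values were seen. A gene of the list of STAT factors is not reported here, so that list is given without its counts.

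Cells with at least 200 genes and at most 10% mitochondrial UMIs were kept. Scrublet's automatic threshold marked 0 to 3 barcodes per library, so the highest scores were removed at 0.8% for each 1000 cells (98 to 321 per library). Clusters came from 2000 variable genes chosen with scanpy 1.11.5, without the 9 members. Immunoglobulin, T cell receptor, ribosomal protein, mitochondrial and some sex-linked genes were also left out. On these, 30 principal components, a graph of shared neighbours (15 per cell) and Leiden resolution 1 were computed outside scanpy, with no integration. A cluster took the class whose markers scored highest with at least 3 detected. It was set aside as mixed where a second lineage's markers reached 0.5 of their best detection rate, a threshold chosen after clusters had been seen. Pairs among macrophage, monocyte and dendritic cell, pairs among T cell, NK cell and type 2 innate lymphoid, and cycling were exempt. Clusters 2, 3, 4, 5 and 16 made up the macrophage-like class. The cells were clustered 3 times: the first 2 clusterings had been analysed in full and were replaced because they depended on the processor's arithmetic; the present one was fixed in double precision before its genes were tested. Socs1 for TmemRT against RT and Socs3 for RT against Sham in macrophage-like cells were called in all 3, Socs1 for RT against Sham in 2 of them.

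Counts were summed per class and library and fitted together over the 6 libraries in edgeR 4.0.16 under R 4.3.3 (TMM, filterByExpr, quasi-likelihood F test, Benjamini-Hochberg adjustment, adjusted p under 0.05), so fold changes are after normalization and differ from ratios of CPM. The fit was tested on simulated data with 200 genes changed. Differences between classes were tested as the interaction of class and group, blocked by library. Alternatives were RLE factors, DESeq2 1.42.0, no count filter, a replicate block, the 5% mitochondrial limit, Leiden resolution 0.5 and each library left out, and, added after seeing the data, another Leiden seed, an Mmp12-led cluster added and mixed clusters added.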

Additional observations from a re-analysis of the deposited data

Results flagged for a closer look

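Socs3 differed in its response between classes: for RT against Sham the log2 effect was 0.62 in neutrophil-like and -0.66 in macrophage-like cells, and the difference of 1.23 passed the interaction test (edgeR adjusted p = 8.45e-05), which was added after the levels had been seen. The median depth by library was 1503 to 2392 UMIs in neutrophil-like and 4869 to 8404 UMIs in macrophage-like cells, and its part in the difference was not tested.

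In 4 further cases every library of a group moved one way in one of the 5 tested classes and the opposite way in another. The difference was not tested in these cases. Opposite moves that involve the untested classes are not listed. Socs3 for RT against Sham had an effect of 0.62 in neutrophil-like and -0.97 in endothelial-like cells, a difference of 1.59. Socs1 for RT against Sham was -0.40 in B cell-like and 0.43 in macrophage-like cells, a difference of -0.82. Ifngr1 for TmemRT against RT was 0.18 in monocyte-like and -0.25 in endothelial-like cells, a difference of 0.43, and 0.26 in neutrophil-like against -0.25 in endothelial-like cells, a difference of 0.51. Apart from the macrophage-like values, none of these single effects passed within its class. Such separation of the libraries was common: among genes with a mean of at least 10 CPM, both RT libraries lay above both Sham libraries for 21.8% in neutrophil-like and 27.4% in macrophage-like cells, and below them for 18.3% in endothelial-like and 21.7% in B cell-like cells. Both TmemRT libraries lay above both RT libraries for 29.2% in monocyte-like and 19.3% in neutrophil-like cells, and below them for 14% in endothelial-like cells. Ifngr1 also went opposite ways in endothelial-like and macrophage-like cells in both comparisons, where the difference was tested and did not pass (-0.25 for TmemRT against RT, edgeR adjusted p = 1, and 0.47 for RT against Sham, adjusted p = 0.703).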

How the results depend on the processing

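Counts of genes passing the test moved with the settings. Without the count filter they were 1215 for TmemRT against RT and 1779 for RT against Sham in macrophage-like, 109 and 278 in endothelial-like, 198 and 99 in monocyte-like, 88 and 64 in neutrophil-like, and 366 and 164 in B cell-like cells, and 59 and 281 for the endothelial-like against macrophage-like difference. With DESeq2 they were 7 and 12 in endothelial-like, 23 and 3 in neutrophil-like and 40 and 6 in B cell-like cells, 36 for TmemRT against RT in monocyte-like cells, and 47 for the neutrophil-like against macrophage-like difference for RT against Sham. At the 5% mitochondrial limit they were 72 and 171 in macrophage-like and 6 and 0 in monocyte-like cells, 0 and 1 for TmemRT against RT in endothelial-like and B cell-like cells, and 70 for the neutrophil-like against macrophage-like difference. At Leiden resolution 0.5 they were 230 for TmemRT against RT in macrophage-like cells, 4 and 424 in endothelial-like cells, 0 for RT against Sham in B cell-like cells, and 0 and 344 for the endothelial-like against macrophage-like difference. Another Leiden seed gave 0 for RT against Sham in endothelial-like cells and 2 and 116 for that difference. Mixed clusters added gave 4 and 356 in endothelial-like, 1008 and 95 in neutrophil-like cells, 0 and 323 for the endothelial-like and 452 for the neutrophil-like difference, and turned Socs3 for TmemRT against RT in neutrophil-like cells to 0.78.

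With a library left out, the counts ran from 35 to 516 for TmemRT against RT and 422 to 819 for RT against Sham in macrophage-like cells, 0 to 24 and 1 to 62 in endothelial-like, 9 to 173 and 0 to 96 in monocyte-like, 2 to 38 and 0 to 8 in neutrophil-like and 2 to 1017 and 0 to 558 in B cell-like cells. They ran from 11 to 73 and 52 to 344 for the endothelial-like difference and 85 to 178 for the neutrophil-like one. A group left with 1 library is assumed to vary like the others. The causes were not tested.

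Replicate numbers are shared between groups but nothing ties them to an animal or day, and deviations of same-numbered libraries correlated at -0.11 to 0.08, except in B cell-like cells (0.14 to 0.28). With the number as a replicate block, RT against Sham gave 2 genes in endothelial-like, 18 in monocyte-like, 8 in neutrophil-like and 111 in B cell-like cells, and TmemRT against RT gave 416 in B cell-like cells. Over all alternatives, 1376 fold changes of members kept direction and side of the threshold. Another 168 changed direction without a call in either fit, 15 lost a call, 4 gained one and 1 reversed with a call.

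With 2 libraries per group, small classes and low UMI counts of Socs1, Jak2 and Tyk2 limited what could be detected. Clustering decided which endothelial and neutrophil cells were counted, and 28 days is the only time.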
